A study of Mus musculus with 2 samples.

Results

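Contigs just downstream of annotated gene ends are stretches of continuous read coverage that lie outside every annotated gene and begin shortly past the 3′ end of a gene on the same strand. Members were chosen by measured values: nuclear contigs of the deposited mm9 contig table of at least 200 nt, with an irreproducibility between the libraries of at most 0.1, that overlapped no gene on either strand and started within 10 kb of a gene end. The rule found 23627 members of 862036 nuclear contigs, or 2.74%, and of 98532 gene-free contigs that passed the same filters on length and irreproducibility, or 24.0%. The nearest gene end on the same strand gave each member its host gene, and there were 8578 hosts among 37310 genes.

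The RNA came from the cortex of adult C57BL/6J mice of 8 weeks, with the sexes pooled, no treatment and no transgene named in the labels. It was polyadenylated, longer than 200 nt, and sequenced from both ends with strand information in 2 libraries. The labels number them as biological replicates 1 and 2, and both belong to the same group. The series holds no second condition, so every comparison here describes this tissue, and none was tested. Whether the 2 libraries came from separate animals is not stated, so their spread may be partly technical.

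Most protein-coding RNAs end where the nascent transcript is cut and a poly(A) tail is added, and many genes have several such sites. Neurons are known for using distal sites, which lengthen the 3′ untranslated region and with it the room for microRNA and protein binding. RNA past an annotated end can therefore come from a longer 3′ end, from transcription that runs on after cleavage, from a spliced exon missing from the annotation, or from a separate gene. Which of these gave each member was not tested.

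The mm10 gene table of replicate 1 summed to 91875460 expected counts, and that of replicate 2 to 92939474. All 15 markers of neurons, astrocytes, oligodendrocytes, microglia and endothelium were detected in both libraries, with means from 13.9 TPM for the endothelial gene Flt1 to 2017 TPM for the myelin gene Mbp. The level of a contig is the authors' value for both libraries together, and a level of 1 corresponded to 53.6 read bases over each contig base. A contig level therefore carries no replicate error, and the spread between libraries is given below from other tables.

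Members were mostly short and faint. Their median length was 600 nt, with quartiles of 416 and 970 nt, and the longest had 35964 nt. Their median level was 0.072, which is 3.86 read bases over each contig base or the bases of 21.6 reads over the contig, and 182 members (0.770%) had a level of 1 or more. Contigs more than 10 kb from every gene had a median length of 566 nt and a median level of 0.072, and 478 of 53303 (0.897%) had a level of 1 or more. Contigs upstream of gene starts, members left out, had medians of 575 nt and 0.075. Length and level therefore did not set the typical member apart from either kind of contig. Together the members covered 21914 kb.

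The values that chose the members ended without a step. The 1505 members at an irreproducibility of 0.1 had a median level of 0.045, and the 1977 contigs just outside, at 0.11, had 0.05. The 5 members at 200 nt had levels of 0.075 to 0.085, and 5 contigs of 199 nt had 0.076 to 0.137. The 5 members nearest to 10 kb from the gene end had levels of 0.036 to 0.131, and the 5 contigs that started 10001 to 10005 nt away had 0.078 to 0.147.

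The windows around genes differed in their number of contigs. The same 10 kb window held 23627 contigs downstream of gene ends and 12450 upstream of gene starts on the same strand, a ratio of 1.90. Members were most numerous near the gene end, with 4088 in the first kb and 1374 in the tenth kb, a ratio of 2.98. Counts in all windows were not adjusted for the gene-free sequence in each bin. Of 9410 detected genes, 3590 had 10 kb or more free of genes past their end. Contigs upstream numbered 1675 in the first kb and 1023 in the tenth, a ratio of 1.64. The ratio of downstream to upstream was 2.44 in the first kb and 1.34 in the tenth. The downstream window on the opposite strand held 11576 contigs. The upstream window on the opposite strand held 15766, with 3248 in its first kb, where transcription that leaves a promoter in the other direction is known to begin. A contig can stand in several of these windows, and 5074 members (21.5%) also lay within 10 kb upstream of another gene on the same strand.

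**Figure D1:**
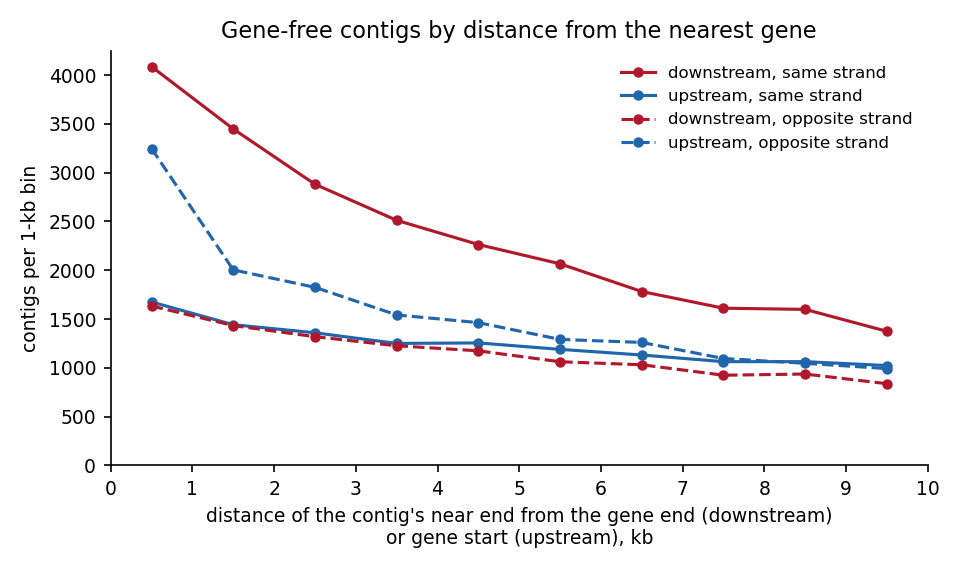
Number of gene-free contigs per 1-kb bin (vertical axis) against the distance of the contig's near end from the nearest gene end or gene start in kb (horizontal axis), for the same and the opposite strand. The downstream window on the same strand starts at 4088 contigs and stays highest in every bin. The upstream window on the opposite strand has 3248 in the first kb and 992 in the tenth, where the upstream window on the same strand has 1023.

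The median level lay between 0.070 and 0.074 in each of the 10 bins. Members of level 1 or more numbered 49 of 4088 in the first kb, 9 of 2066 in the sixth and 12 of 1374 in the tenth. The median distance of all members was 3524 nt, so "just downstream" holds for few of them: 529 started within 100 nt and 35 within 10 nt.

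Hosts were mostly protein-coding genes, 6708 of 8578, which carried 79.1% of the members. By the types of GENCODE release 21, matched on identifier, 333 hosts were processed pseudogenes, 197 lincRNA genes, 102 microRNA genes, 88 snRNA genes and 55 snoRNA genes, and 645 had no type there. A host had a median of 2 members, 3205 hosts had 1, and Mgat3, which encodes a glycosyltransferase, and Gm20878 had 14 each. Those of Mgat3 started 704 to 9662 nt past its end, at levels of 0.039 to 0.185.

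Detected genes, with at least 1 RPKM in both columns of the mm9 gene table, were more often hosts than other genes. Of 9410 detected genes 4408 (46.8%) had a member, against 4170 of 27900 other genes (14.9%). By mean RPKM, the share was 8.81% of 21910 genes under 0.1 RPKM and 37.3% of 5705 genes from 0.1 to under 1 RPKM. From 1 RPKM up the share hardly moved with expression. It was 47.2% of 8270 genes with a mean of 1 to under 10 RPKM, 43.0% of 1375 genes from 10 to under 100 RPKM, and 48.0% of 50 genes above. Among detected genes, space moved it more. The share was 71.8% of the 3590 detected genes with at least 10 kb free of genes past their end, 42.0% of the 1919 with 1 to 5 kb, and 9.72% of the 967 with under 1 kb. The rule admits no contig that overlaps a gene, so a crowded gene end has little room for members.

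Across the 12523 members of detected hosts the level had a Spearman correlation of 0.02 with the host's mean RPKM. This is a description across contigs, several of which share a host.

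A contig of the same table ran over the gene end itself in 96.3% of the 4408 detected hosts and in 88.1% of the detected genes without a member. It went a median of 632 nt past the annotated end in hosts and 641 nt in the other genes. These overrunning contigs overlap the gene and are therefore no members. Set against them, members were faint: the median member of a detected host had 1.94% of the level over its host's end (12126 members), and 103 reached or passed that level.

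To sort members by how closely they followed a gene end, members were chained. A member counted as chained when no gap longer than 500 nt lay between it and the gene end. The overrunning contig and nearer members were allowed for. Where no passing contig ran over the gene end, as at Grin2a, the gap was counted from that end itself. Chaining describes position and coverage, and a chained member need not belong to the host's transcript. Chained members numbered 11755 (49.8%), at 5490 hosts. Their median length was 721 nt, against 524 nt for the others, and their median level 0.082, against 0.065. The chains reached a median of 2995 nt past the gene end, at least 5 kb at 1670 hosts and at least 10 kb at 534. An assembled transcript model on the same strand that also held an exon of the host covered part of 1888 chained members (16.1%) and of 154 others (1.30%). The models were taken to be the authors' assembly of the same reads. Chaining rests on the same coverage, so this contrast gives the chains no independent support. In all, 13834 members (58.6%) lay under some assembled model, 2042 (8.64%) under one that reached the host, and 11567 (49.0%) only under models that reached no annotated gene.

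The assembled models give RPKM in 2 columns, taken as 1 per library, which show the spread between columns. At 8328 members the best model was a lone exon with values above 0 in both columns. The log2 ratio of the second column to the first had an SD of 0.98 over these members, and 25.6% differed by more than 2-fold. Across the 8328 members the columns had a Spearman correlation of 0.32 and a Pearson correlation of log values of 0.56, as a description. These members were chosen for low irreproducibility and for values in both columns. The share that differed by more than 2-fold was 27.3% of 6378 members under a level of 0.1, 19.9% of 1917 from 0.1 to under 1, and 4 of 33 at 1 or more. The level pools both libraries, so no correlation is given within these bands. Many of the members named below have levels under 1, where this spread is wide.

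**Figure D2:**
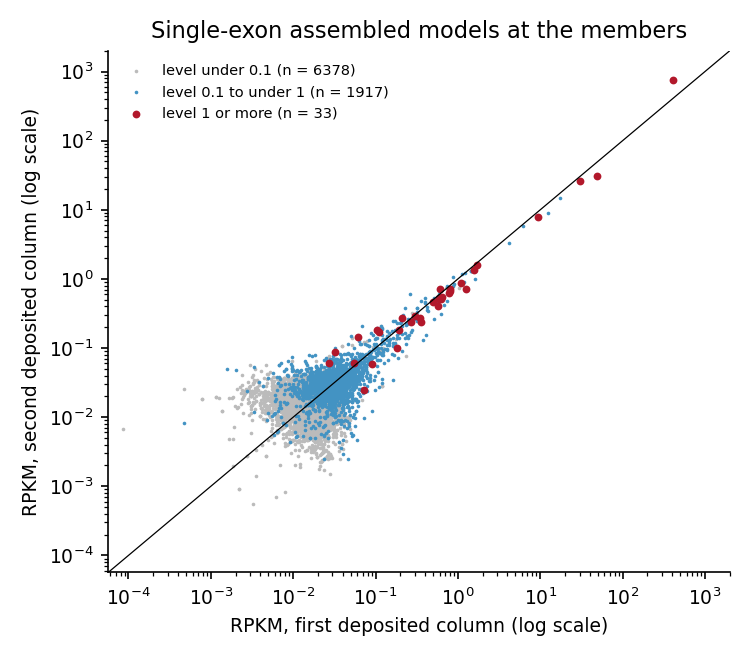
RPKM of the single-exon assembled model at a member in the second deposited column (vertical, log scale) against the first (horizontal, log scale), 1 point per member, coloured by contig level. Of the 33 members of level 1 or more 4 lie more than 2-fold off the line of equal values, and 27.3% of the 6378 members under 0.1 do. The level pools both libraries, so the spread of a colour along the line is limited by how it was chosen.

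Some strong members were long and chained to the end of their host. Chained members of at least 2 kb and level 2 or more at protein-coding hosts numbered 16, a rule chosen after the values were seen. For 7 of the 16 the level was above that of the contig over the gene end, and Grin2a had no such contig. Whether these members belong to transcripts of their hosts was not tested.

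Grin2a, which encodes an NMDA receptor subunit, had the largest of these by far. Its member ran from 9556471 to 9577489 on chromosome 16, minus strand (mm9 throughout), 21019 nt long at a level of 6.38. It began 314 nt past the gene end, and no passing contig covered that end. Grin2a itself had 1.88 and 1.71 RPKM in the mm9 columns, and 13.5 TPM in replicate 1 and 12.4 TPM in replicate 2 (12.9 ± 0.757, SD, n = 2). Its longest transcript had 4820 nt in the annotation of the mm9 tables and in that of the mm10 tables, and 14634 nt in release 21, a gain of 9814 nt.

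Pex5l encodes a protein that binds HCN channels and steers their place in the membrane. Its members had 658 nt at 8.28, 2730 nt at 12.1 (chromosome 3, 32841817 to 32844546, minus strand) and 878 nt at 0.132, each 19 nt after the contig before it. The contig over the gene end had a level of 16.4 and ran 3310 nt past that end. The drop in level thus lay 6736 nt past the annotated end.

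Slc24a4, a sodium, potassium and calcium exchanger, had a member of 3760 nt at 7.77, which is 200% of the level of 3.88 over its end. Cacng8, an auxiliary subunit of AMPA receptors, had 2 members of 1468 and 3583 nt at 9.10 and 8.74, against 2.30 for the contig that ended at its annotated end. These members were not chained, since they started 3161 and 4766 nt past that end. Cacng8 had 32.4 TPM in replicate 1 and 22.7 TPM in replicate 2.

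Gpm6a, a neuronal membrane glycoprotein gene with 479 and 422 TPM in replicates 1 and 2, had a member of 11988 nt at 4.83. That was 7.62% of the level of 63.4 over its end, and the step lay 4562 nt past that end. Elavl2, which encodes an RNA-binding protein of neurons, showed the same order at a lower level: 0.482 over a member of 23992 nt, against 1.77 for the contig that ran 5546 nt past the end. The chain reached 29602 nt past the gene end.

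Further hosts among the 16 had roles of many kinds. Sod2, the mitochondrial superoxide dismutase gene, had a member of 4285 nt at 3.40, which was 78.9% of the level over its end. Etv1, a transcription factor gene, had one of 3431 nt at 3.04, which was 63.5%. Slit1, a secreted guidance cue, had one of 2041 nt at 5.02, which was 75.7%. Memo1 had one of 9325 nt at 2.08, which was 94.98%. In Sntb2 and Tmf1 the members stood at 3.34 and 2.03, against 0.513 and 0.780 over the gene end. Longest transcripts of these 2 genes grew by 5522 and 2267 nt by release 21. Of the 16 members, 10 had a host with a gain of at least 500 nt by that release. The change was 0 nt for Slc24a4 and Slit1 and -122 nt for Gpm6a.

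**Figure D3:**
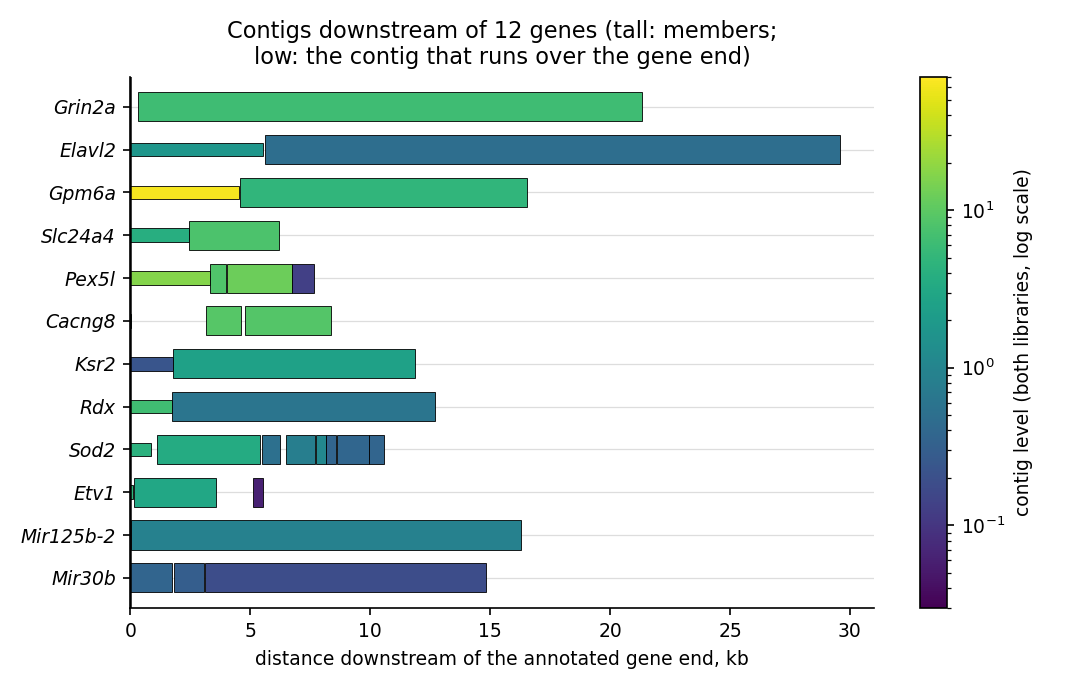
Members (tall boxes) and the contig that runs over the gene end (low boxes) at 12 hosts, by distance past the annotated gene end in kb, coloured by contig level on a log scale. Grin2a has a member of 21019 nt from 314 nt on, the Gpm6a member stands at 4.83 beside 63.4 over the gene end, and the boxes of Mir125b-2 and Mir30b start at the hairpin's end.

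Splice junctions joined few members to their hosts. A junction end lay inside 992 members (4.20%) in both libraries, and inside 14.01% by the first column and 13.7% by the second (13.8 ± 0.245%, SD, n = 2 columns). The same mean was 22.5 ± 0.0575% for contigs upstream of gene starts, members left out, and 17.2 ± 0.447% for contigs more than 10 kb from genes. Members thus held junction ends less often than either set in each column. The SD covers repeat counting over the same contigs, not variation between contigs, and the difference was not tested. Among members of level 1 or more, 92 of 182 (50.5%) held one, against 900 of 23445 (3.84%) below that level. Detection of a junction needs reads, and the share was not adjusted for level.

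A junction with its donor in the host and its acceptor in the member, seen in both libraries, joined 185 members to 185 hosts. None of the 215 junctions carried the deposited A flag, which was taken to mark annotated junctions and whose meaning is not stated. Under that reading the rule fixed this in advance, since members overlap no annotated gene. The median intron of the 215 junctions was 7405 nt. With at least 5 reads in each column, 36 members remained joined. A further measure counts splicing onward: 126 members had a donor joined to an annotated gene downstream.

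Rdx, which encodes radixin, a linker of actin to the membrane, had the most such reads. Its junction skipped an intron of 13895 nt with 204 reads in the first column and 187 in the second, into a member of 10956 nt at level 0.620 that began 1752 nt past the gene end. Ksr2, a scaffold of the Ras and MAP kinase pathway, followed among hosts with a symbol. It had 66 and 68 reads over an intron of 2236 nt, into a member of 10070 nt at 2.57, against 0.229 for the contig over the gene end. Cr1l, a complement regulator gene, had 49 and 64 reads into a member of 3410 nt at 2.00. Xpnpep1, an aminopeptidase gene, had 36 and 29 reads over an intron of 63158 nt. The antisense gene Gm12279 had 37 and 39, and the lincRNA gene Gm9801 had 33 and 40. The other 4 of the leading 10 were genes without a symbol, with 27 to 50 reads in the first column and 28 to 54 in the second.

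Annotation made later than the mm9 tables was longer for part of the hosts. At least 1 TPM in both replicates was reached by 6184 hosts and by 7324 genes without a member. The longest transcript was longer in the annotation of the mm10 tables (GENCODE release 4) for 11.9% of those hosts and 10.1% of the other genes, and by at least 500 nt for 4.46% and 3.796%. By release 21 the gain was at least 500 nt for 15.5% of the hosts and 12.6% of the other genes. It was 28 of 77 (36.4%) for hosts of a member of level 1 or more. A gain can lie anywhere in the transcript, since only lengths were compared. Transcripts longer than the mm9 maximum held a mean of 7.22 ± 0.0243% of a host's TPM over the replicates. In genes without a member they held 6.42 ± 0.0256% (SD, n = 2 replicates), and the median was 0 in both sets. This SD covers repeat measurement of the same genes, not variation between genes, and the difference was not tested. Of 732 chained hosts with a gain of at least 500 nt by release 21, 89 had a gain within 20% of the reach of their contigs.

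**Figure D4:**
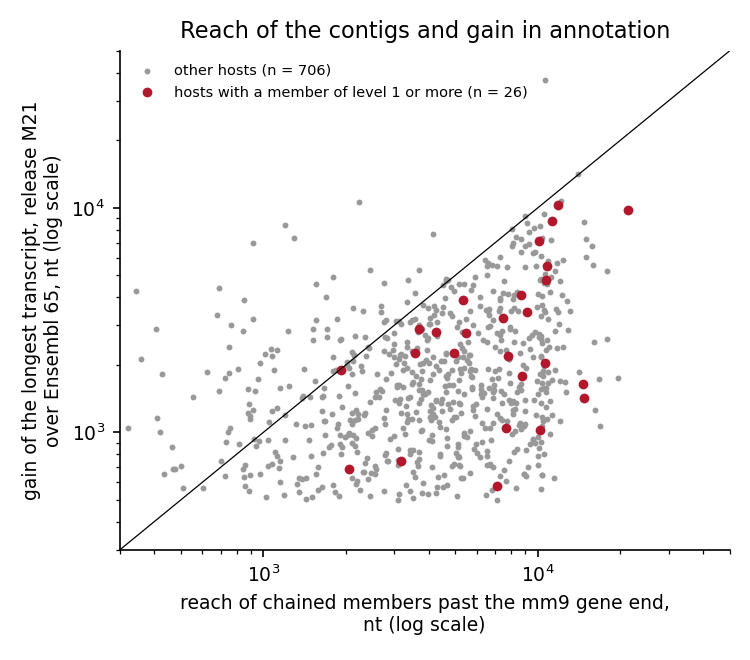
Gain of the longest transcript from the mm9 annotation to release 21 in nt (vertical, log scale) against the reach of chained members past the mm9 gene end in nt (horizontal, log scale), for 732 hosts with a gain of at least 500 nt. Most points lie below the line of equal values, where the contigs reach farther than the gain.

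Ksr2 was among the 10 hosts with the largest gains at release 4. Its longest transcript gained 10242 nt where its chain reached 11847 nt, and longer transcripts held 90.5% of its 4.96 TPM in replicate 1 and 92.6% of its 4.48 TPM in replicate 2. The share of TPM in longer transcripts differed widely among the other large gains. D1Ertd622e gained 36883 nt, with 0.667% and 0.793% of its TPM in longer transcripts. Dpp10, which encodes a partner of Kv4 potassium channels, gained 10668 nt with 2.16% and 2.14%, beside 2 chained members at 0.177 and 0.281 against 8.92 over its end. Bmpr2, a receptor for bone morphogenetic proteins, gained 9392 nt where its chain reached 10517 nt. Longer transcripts held 98.3% and 97.9% of its TPM. Its member had 2325 nt at 0.099, beyond an overrunning contig that went 8156 nt past the mm9 end at a level of 9.30. Kcnq3, a potassium channel gene, had the same form, with a gain of 8784 nt, 100% of its TPM in longer transcripts in both replicates and a member at 0.076, beyond an overrunning contig of 9234 nt past the end at 7.22. Pgap1, Rnf217, Cux1, Nmd3 and Nop58 completed the 10 largest, with gains of 6920 to 8160 nt. Longer transcripts held 100% of the TPM of Pgap1 and Rnf217 in both replicates. They held a mean of 15.4 ± 0.444% for Cux1, 14.01 ± 0.481% for Nmd3 and 22.3 ± 2.31% for Nop58 (SD, n = 2 replicates).

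MicroRNA genes were hosts of another kind, since their annotated end is the base of a hairpin and not the end of a transcript. A primary microRNA transcript is long, and the Microprocessor cuts the hairpin out of it, which leaves RNA on both sides. Of 1081 microRNA genes 102 (9.44%) were hosts, a lower share than the 14.9% of all genes not detected. Of these 102 hosts, 100 had 0 RPKM in both columns. At 14 a member started within 200 nt of the end and at 6 within 10 nt, of 35 such hosts of any kind. These starts are shown with the sequences that RefSeq gives on GRCm38.p6, which were found for Mir192 and Mir146 among the 6. For both, the hairpin is as long as the mm9 gene. The first lines give the hairpins with both mature arms in capitals, the others the mature microRNAs with the seed (bases 2 to 8) in capitals.
Mir192 hairpin: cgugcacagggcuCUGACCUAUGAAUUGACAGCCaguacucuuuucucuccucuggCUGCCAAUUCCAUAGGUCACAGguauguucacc
Mir146 hairpin: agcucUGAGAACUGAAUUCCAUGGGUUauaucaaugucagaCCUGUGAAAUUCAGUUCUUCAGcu
mmu-miR-192-5p: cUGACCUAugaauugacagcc
mmu-miR-192-3p: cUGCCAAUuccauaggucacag
mmu-miR-146a-5p: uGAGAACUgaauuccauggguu
mmu-miR-146a-3p: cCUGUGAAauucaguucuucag

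The 4 seeds differ from each other. The member of Mir146 started 7 nt past the hairpin, which is 9 nt past the last base of the 3p arm, and ran for 3373 nt at a level of 0.348. The member of Mir192 started 6 nt past the hairpin and 17 nt past its 3p arm, and ran for 995 nt at 0.106. miR-146a is known as a brake on inflammatory signalling.

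Mir30b had a member that began 1 nt past its end, on chromosome 15 from 68167241 to 68168976, minus strand. Its model had 0.106 and 0.0999 RPKM in the 2 columns. With 2 further members it formed a chain of 14827 nt at levels of 0.183 to 0.369. Mir125b-2, a microRNA abundant in brain, had a single member of 16272 nt at 0.876 that began 5 nt past its end (chromosome 16, 77646593 to 77662864, plus strand). A lone-exon model over 63.7% of it had 0.352 and 0.275 RPKM. Mir187, on chromosome 18, had its first member 8 nt out and was the only one of these with a contig within 200 nt upstream as well, 80 nt away. The sixth, Gm24484, had a faint member of 382 nt at 0.070, 4 nt out. Of the 14 hosts within 200 nt, 4 had such a contig on the upstream side.

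Chromosome 7 held 37 of the 182 strong members, and 1631 of all 23627 members. Of these 37, 27 lay between Ube3a and Snord64 (66562097 to 67123694, minus strand). This interval was chosen after the values were seen. It is part of a region known for imprinting, where a long transcript carries arrays of small nucleolar RNAs and runs antisense to Ube3a, a ubiquitin ligase gene. The interval held 165 annotated genes on the minus strand, all under 200 nt, of which 7 had a symbol, and 96 were hosts. Their 155 members had a median level of 0.154, a highest level of 7.2 and a median length of 335 nt, against 0.072 and 600 nt for all members. A junction end lay in 53 of the 155. The plus strand of the interval had no annotated gene and no member. Its first 10 kb lay past the end of Ube3a, where the rule could have found members, and Ube3a was not a host. Copies of such genes are often alike in sequence, so reads may have been shared between them, and the values of single members there are uncertain. Ube3a itself had 7.88 TPM in replicate 1 and 6.4 TPM in replicate 2.

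The 10 strongest members were of yet another kind. A contig of 208 nt with a level of 5720 lay 7280 nt past Tra2a, a splicing factor gene (chromosome 6, 49186433 to 49186640, minus strand). It held 63777990 read bases, its model had 406 and 767 RPKM in the 2 columns, and the chained members nearer to the gene had 0.107 at most. Contigs of level 2160 past Gm15569 (631 nt) and 698 past Rimbp3 (319 nt) lay 7594 and 8229 nt out, and neither was chained. The chain past Rimbp3 reached 7576 nt. The next were 93.8 past the neutrophil gene Elane, which was listed at 0 RPKM, 93.3 past Pa2g4 and 60.9 past the snoRNA gene Gm22519. The Elane contig of 348 nt had a model with 48.7 and 31.2 RPKM, and the Gm22519 contig of 578 nt had one with 30.5 and 26.4. Gm20391, Cyp2c50, Gm5578 and Actn2 closed the 10, at 33.5, 24.7, 16.7 and 16.2. Of these 10 members 3 were chained to the gene end. What their reads represent was not tested, and how the authors placed reads that fit several positions is not given in the sources used here.

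The longest members were a mixed group. They lay past Zfp619, a zinc finger gene (35964 nt at 0.718), Mir690 (35609 nt at 0.834), Elavl2, Apex2, a DNA repair gene (23322 nt at 0.694), D130040H23Rik (21284 nt at 1.31), Grin2a, Figla (20834 nt at 0.613), Xkr6 (18444 nt at 0.681) and 2 genes without a symbol. By gene RPKM the hosts themselves were mostly low: Zfp619 had 0.162 and 0.166, Mir690 had 0 in both columns, and Figla, an oocyte transcription factor, had 0.003 and 0.006. The 0 RPKM of Mir690 does not describe its locus. The member past Mir690 began 9473 nt out, where a contig of level 0.966 ran over and 9396 nt past the hairpin. By summed length of their members, Zfp619 led all hosts with 40867 nt.

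Lists of genes that fit the tissue were set against the 46.8% of detected genes with a member, with 0.563% having one of level 1 or more. The lists are small, and no difference from that share was tested. Beside each share stands the number of the list's genes with 10 kb or more free of genes past their end, which were 38.2% of all detected genes. Of the 3590 detected genes with such space, 2578 (71.8%) were hosts. Neuronal RNA-binding proteins had a member at 22 of 31 detected genes. Of the 31, 19 had free space, and 17 of these 19 were hosts. Elavl2 led them, followed by the splicing regulator Nova1, whose 7 members summed to 8408 nt at levels of at most 0.174. AMPA, NMDA and kainate receptor subunits had 8 of 11, led by Grin2a. Free space was found at 7 of the 11, of which 5 were hosts, near the share of all detected genes with such space. The AMPA receptor gene Gria1 had 4 members of 4894 nt in sum, all faint, at 0.178 or less beside 3.97 over its end. GABA-A receptor subunits had 6 of 10, with 8 free, of which 6 were hosts. Gabra2 had 3 members and 9175 nt up to a level of 0.2.

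Channel genes stood nearer to the background. Sodium and calcium channel subunits had 12 of 22, with 11 free, of which 9 were hosts. Cacna2d3 led them with 10422 nt in 4 members, followed by Scn1a with 6878 nt in 2. Potassium channel subunits had 11 of 24, with 13 free, of which 10 were hosts, led by Kcna6 (8569 nt) and Kcnc2 (5093 nt). Vesicle fusion and active zone genes had 12 of 26, with 10 free, of which 7 were hosts. Sv2b, a vesicle protein gene, had 8984 nt and Rims1, a scaffold of the active zone, 8412 nt. Postsynaptic scaffolds and adhesion genes had 12 of 24, with 12 free, of which 8 were hosts. Dlgap1 (5837 nt in 8 members) and Nrxn3 (5396 nt in 6) led them. Calmodulin and its kinases had 10 of 17 with only 2 free, both hosts, led by Camk1d (5367 nt) and Camk2a. The 3 members of Camk2a, with 956 and 812 TPM an abundant RNA, reached 0.105, beside 41.3 over its end.

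Immediate early genes had 8 of 12, with 7 free, of which 6 were hosts. Egr3, a transcription factor gene, had 2 members of 10741 nt in sum at 0.198 or less, beyond a contig of level 11.1 that ran 5033 nt past its end. Its longest transcript gained 2524 nt by release 21. Jund had 4 members of at most 0.067. The microRNA pathway had 4 of 10, with 3 free, all hosts. Drosha, the nuclease of the Microprocessor (2551 nt), and Tnrc6b (2154 nt) led it. The polyadenylation machinery had 6 of 16, with 3 free, all hosts. Cpsf6, a cleavage factor subunit, had 11631 nt in 2 members up to 0.343, and Papola, a poly(A) polymerase, 2842 nt.

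Glial and vascular lists lay on both sides of the background. Myelin and oligodendrocyte genes had 6 of 15 (7 free, 6 of them hosts), led by Mal with 7604 nt and Ugt8a with 6725 nt. Astrocyte genes had 8 of 15 (5 free, 4 of them hosts). Slc4a4 led them, followed by the glutamate transporter gene Slc1a2, which had 2 members of 2315 nt in sum. Microglial genes had 5 of 13 (4 free, 3 of them hosts), led by Siglech with 8 members and C1qb. Endothelial genes had 5 of 9 (5 free, 4 of them hosts), led by Slco1c1 and Flt1. Cytoplasmic ribosomal protein genes had 24 of 48 (9 free, all 9 hosts), led by Rps20 and Rpl15. Oxidative phosphorylation genes had 20 of 40 (14 free, 12 of them hosts), led by Ndufa8 and Cox7a2. Among the detected genes of all 17 lists, 2 had a member of level 1 or more: Grin2a, and Ndufa9 of respiratory complex I, with 3039 nt at 5.10 from 563 nt past its end, against 2.16 over the end. Nudt21, a cleavage factor subunit of the polyadenylation list, missed detection with 0.885 and 0.769 RPKM. Its 2 chained members had 438 nt at 3.99 and 1992 nt at 1.99.

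**Figure D5:**
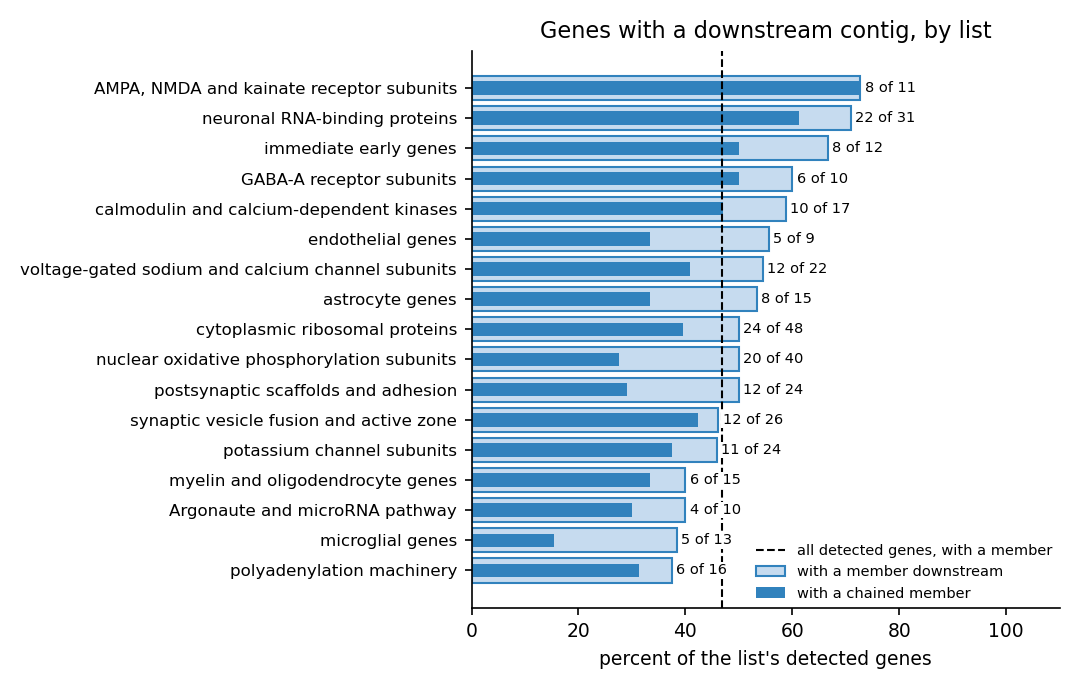
Percent of each list's detected genes with a member downstream (light bars, with counts) and with a chained member (dark bars). The dashed line marks the 46.8% of all 9410 detected genes. The glutamate receptor and RNA-binding protein lists lie highest, and the polyadenylation machinery lowest. The bars are not adjusted for free space. Of all detected genes with 10 kb or more free, 71.8% were hosts. The counts were 17 of 19 in the RNA-binding list and 5 of 7 in the glutamate receptor list. High shares also stood in other lists, with 9 of 9 for ribosomal proteins, 12 of 14 for oxidative phosphorylation and 3 of 3 for polyadenylation. Vesicle fusion genes had 7 of 10 and postsynaptic scaffolds 8 of 12.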

How the data were processed

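Polyadenylated RNA of adult mouse cortex was measured in 2 libraries. The authors' deposited contig table (mm9) gives for each contig a signal level, an irreproducibility score and the sum of read bases, each for both libraries together. The deposited junction table gives counts of junction reads, and the deposited mm9 gene, exon and model tables (Ensembl 65 identifiers) give RPKM, in 2 columns that were not assigned to replicates because no source says which is which. The authors' mm10 tables give expected counts and TPM for each replicate. The aligner, the contig caller and the treatment of reads that fit several positions are not given in the sources used here, so levels over repeated sequence are uncertain.

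Positions were read as 1-based mm9 coordinates, and each gene's pair of identical lines was counted once. For 23 members the nearest gene end was shared by several genes, of which the first was taken. Symbols and types came from GENCODE release 21 by identifier, and 92.5% of hosts had a symbol. mm10 and release 21 data were joined by identifier only, never by position, and transcript gains compare summed exon lengths. Overlaps with models used bedtools 2.31.1 on the same strand. Tables were joined in Python 3.11.15 (pandas 2.3.3), and figures drawn with matplotlib 3.10.9. The rule was checked on simulated intervals. No test was made, since the series has 1 group.

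Named were the 10 hosts with most member bases, the 10 strongest and 10 longest members, the 10 with most junction reads from the host, the 10 hosts with the largest transcript gain, and the 2 hosts of each list with most member bases. One host that this rule names is not reported here. Others were chosen after their values were seen. Members and lists were chosen with earlier results of these data known.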

Additional observations from a re-analysis of the deposited data

How the results depend on the processing

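The number of members fell to 13958 with an irreproducibility of at most 0.01, 14842 with at least 500 nt, 15195 within 5 kb and 12523 with detected hosts only, where 4408 hosts were left. Hosts stayed within 1.5 times of 8578 under the other settings. The ratio of downstream to upstream contigs stayed between 1.90 and 2.64. The median distance was 2020 nt within 5 kb, by construction. The percent of members with a junction end was 6.15, 4.84, 3.57 and 2.88 under those same 4 settings in that order, 4.58 where only overlap on the same strand was barred, 1.32 with at least 5 reads in both columns, and 14.01 or 13.7 by either column alone. Members joined to the host numbered 36 with at least 5 reads in both columns. The percent of hosts with a longer transcript was 4.46 with a gain of at least 500 nt and 35.2 with release 21. The rank correlation of member level with host RPKM was -0.00796 without the RPKM filter. Settings chosen after seeing the data gave 4613 chained members with gaps of at most 100 nt, 7141 with 200 nt and 16089 with 1000 nt. The median TPM share in longer transcripts was 0 without either replicate. The cause of these shifts was not tested. No paired analysis was possible because the series has 1 group. The median member held the bases of 21.6 reads, and no setting varied the depth.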

Other observations

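Strong members also lay past genes outside the lists and rules, chosen here after their values were seen. Dlx6os1, an antisense RNA gene of the Dlx5 and Dlx6 locus that is used as a marker of interneurons, had a chained member of 12248 nt at a level of 2.28, which was 232% of the level over its end. Dlx6os1 itself had 0.418 and 0.705 RPKM. Ube2nl, a processed pseudogene, had a chained member of 17552 nt at 2.00, which was 901% of the level over its end. St8sia5, a sialyltransferase gene of ganglioside synthesis, had one of 2433 nt at 1.96, which was 37.5%.

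Mirlet7i, a let-7 microRNA gene listed at 0 RPKM, had 3 chained members from 3251 nt past its hairpin on, at 1.12, 0.178 and 0.114. The first was 3214 nt long and stood at 114% of the contig over the hairpin.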
